A study of Homo sapiens with 9 samples.

Results

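PaTu 8988t is an established human cell line, derived from metastatic pancreatic ductal adenocarcinoma. The values below describe its transcriptome on a control extracellular matrix, from 3 of the 9 RNA sequencing libraries of a study on matrix that contains the secreted protein CPXM2. The members are the libraries labelled Control 1, Control 2 and Control 3, taken by their labels, with the treatment given as Ctrl ECM. The other 6 libraries, on matrix with wild-type CPXM2 or with its R213A mutant, were not compared here. All 3 control libraries come from the same line, grown in DMEM with fetal bovine serum and penicillin/streptomycin, and their labels name no form of CPXM2. What the control matrix is made of, and how long the cells met it, is not given in the sources used here. The labels also do not say whether the 3 libraries came from separate cultures, so the spread between them may be partly technical.

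Levels are FPKM, fragments per kilobase of gene scaled by a factor for each library. Division by length makes genes comparable only in part. The length is that of the gene's annotated exons and not of the transcript expressed. Control 1 stands in a deposited table of 4 libraries, and control 2 and 3 stand in another of 5. What sets control 1 apart and what sets its table apart cannot be told apart. The recovered totals were between 17160420 and 18211216 reads, and 20059 to 21401 genes of any type had at least 1 read. Each value is given in the order control 1, 2 and 3 unless stated otherwise. In a bulk sample, fewer cells of a type and less RNA per cell cannot be told apart.

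Pancreatic ductal adenocarcinoma is thought to arise in the exocrine pancreas, whose ducts carry keratins such as KRT19 and whose acini make digestive enzymes. Expression studies sort these tumours into a classical subtype, marked by GATA6 and gut-like epithelial genes, and a basal-like or quasi-mesenchymal subtype, marked by squamous keratins or by genes of motile cells. Cell lines often keep only part of the programme of their tumour of origin.

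Of 19951 protein-coding genes, 9175, or 46.0%, had at least 1 FPKM in all 3 libraries and are called present below. A further 6967 genes, or 34.9%, lay under 0.1 FPKM in all 3 and are called absent, which is a statement about level and not about the gene. Of these, 4376 were listed at 0 in every library. The remaining 3809 genes lay between. Without control 1, which stands apart from the other libraries as shown further on, 9598 genes were present and 7220 absent. With a mean of at least 10 FPKM there were 4259 genes, with at least 100 FPKM 323, and with at least 1000 FPKM 18.

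**Figure D1:**
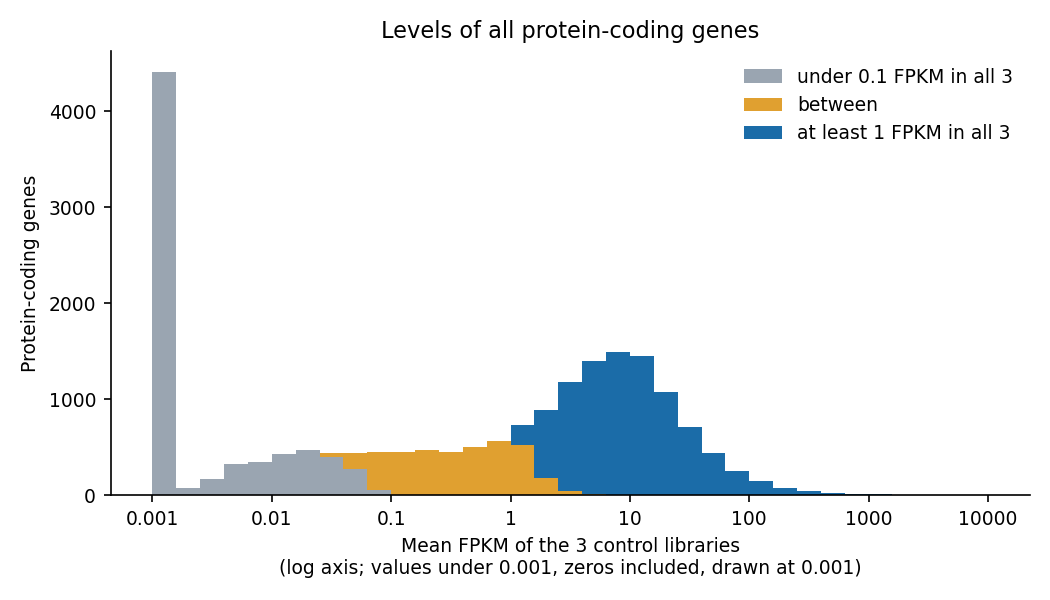
Number of protein-coding genes by mean FPKM over the 3 control libraries, on a log axis, with bars stacked by class. Of 19951 genes, 9175 had at least 1 FPKM in all 3 libraries, 6967 lay under 0.1 FPKM in all 3, and the bar at the left edge holds mainly the genes listed at 0.

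Whether a gene could be detected also followed how much of it is shared with a neighbour. Of 475 genes with 90% or more of their exonic bases inside exons of another gene on the same strand, 0 were present and 445 were absent, against 7848 and 5685 of the 16526 genes with no such overlap. Between 50% and 90% of overlap, 29 of 433 genes were present. EIF4A1, an RNA helicase of translation initiation that dividing cells depend on, shares 48.6% of its exonic bases on its strand and was at 0.903, 0.962 and 0.903 FPKM. SUPT4H1, a transcription elongation factor used by most cells, shares 70.6% and was listed at 0 in all 3 libraries. For genes that overlap another on their strand, a low value cannot be told apart from reads left uncounted. Of the 389 absent genes on the lists described below, 8 share 50% or more: ADORA2A, CCR6, CD68, FGF11, IGF2, IL2RG, RNF43 and TNFRSF6B. They stay in the counts of absent genes below, where their absence is uncertain.

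The start of the gene differed between the classes too, a feature the classes did not use. RefSeq start windows on GRCh38.p14, a patch release of the assembly that hg38 names, matched 15310 of 19930 genes with a symbol of their own. In the 250 bases before the start, the median ratio of observed to expected CG pairs was 0.849 for the 7599 present genes with a window and 0.336 for the 4864 absent genes. The letters TATAAA, searched on both strands, were in 4.45% of the windows of present genes, in 17.1% of those of absent genes and in 9.19% of all windows. The next 3 windows, printed 5′ to 3′ on the gene's strand with each CG in capitals, show the most abundant gene and 2 genes at or near 0 reads: EEF1A1 (chr6:73521033-73521282, minus strand), SMAD4 (chr18:51029963-51030212, plus strand) and the insulin gene INS (chr11:2161210-2161459, minus strand).
EEF1A1: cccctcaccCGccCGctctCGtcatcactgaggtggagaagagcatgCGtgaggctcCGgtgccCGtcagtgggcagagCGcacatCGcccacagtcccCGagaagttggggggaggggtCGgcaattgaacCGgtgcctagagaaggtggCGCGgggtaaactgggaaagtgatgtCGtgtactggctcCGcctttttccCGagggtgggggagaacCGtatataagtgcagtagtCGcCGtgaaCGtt
SMAD4: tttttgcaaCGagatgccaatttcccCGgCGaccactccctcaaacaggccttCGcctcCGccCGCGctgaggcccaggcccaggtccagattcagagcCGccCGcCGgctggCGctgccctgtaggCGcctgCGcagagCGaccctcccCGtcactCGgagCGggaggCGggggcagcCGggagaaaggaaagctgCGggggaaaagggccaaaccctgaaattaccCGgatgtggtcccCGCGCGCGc
INS: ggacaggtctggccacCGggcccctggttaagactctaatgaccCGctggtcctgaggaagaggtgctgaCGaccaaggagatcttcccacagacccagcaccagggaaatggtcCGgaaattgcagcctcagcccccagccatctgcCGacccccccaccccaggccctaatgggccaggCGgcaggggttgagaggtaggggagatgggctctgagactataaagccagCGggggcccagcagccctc
Their ratios were 0.864, 0.857 and 0.273, with 20, 25 and 7 CG pairs. EEF1A1 and SMAD4 thus had start windows that were alike by this measure, although SMAD4 had 1 read in the 3 libraries together. The part of gene function or length in the difference between the classes was not tested.

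The most abundant protein-coding gene was EEF1A1, the elongation factor that brings aminoacyl-tRNA to the ribosome, with 5121 ± 2393 FPKM (SD, n = 3). It was at 2622, 7391 and 5351 FPKM, lowest in control 1. In control 1 the mitochondrial genes MT-CO2, MT-CO3 and MT-CO1 and the ferritin gene FTL stood above it. Of the 20 genes of highest mean, 7 are encoded by the mitochondrial genome and 4 encode ribosomal proteins, and 10 of the 20 were among the 20 highest in each library. The 10 most abundant genes held 9.95%, 11.1% and 11.3% of the protein-coding FPKM sum, and the 100 most abundant held 29.2%, 32.1% and 30.6%. Mitochondrial genome genes alone held 9.51%, 5.002% and 8.84%, lowest in control 2.

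**Figure D2:**
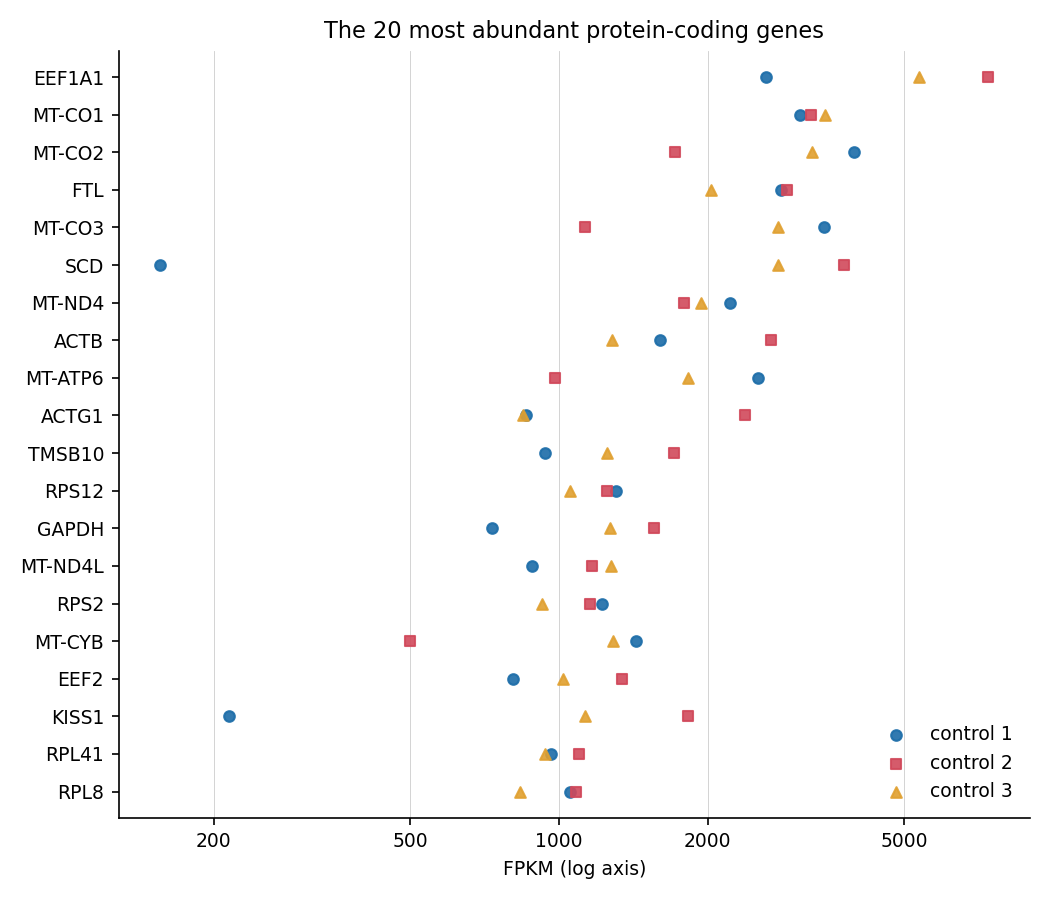
FPKM of the 20 protein-coding genes of highest mean, on a log axis, with 1 marker for each of the 3 control libraries. EEF1A1 leads with 2622 to 7391 FPKM, and control 1 lies far to the left of the other libraries for SCD and KISS1.

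Protein synthesis, the cytoskeleton and iron storage filled most of the remaining places. FTL, the ferritin light chain that stores iron, was at 2811, 2893 and 2034 FPKM. The cytoplasmic actin genes ACTB and ACTG1 were at 1598, 2689 and 1281 FPKM and at 859, 2374 and 847 FPKM, both highest in control 2. TMSB10, a thymosin that binds actin monomers, was at 936, 1706 and 1248 FPKM. GAPDH, a glycolytic enzyme often used as a reference gene, differed between the libraries as well, with 731, 1559 and 1268 FPKM. The ribosomal protein genes RPS12, RPS2, RPL41 and RPL8 had coefficients of variation of 11.1%, 14.2%, 8.51% and 13.7%, against 64.6% for ACTG1, and RPS12 was at 1305, 1249 and 1051 FPKM.

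Of the 20, SCD and KISS1 are not housekeeping genes in the usual sense. SCD, the desaturase that makes oleic acid, was at 156, 3766 and 2773 FPKM, so that it ranked among the highest genes in control 2 and 3 and far lower in control 1. KISS1 encodes kisspeptin, a secreted peptide first described as a suppressor of metastasis and known as a regulator of puberty. It was at 215, 1822 and 1127 FPKM, again lowest in control 1. The window before its start (chr1:204196492-204196741, minus strand) held the letters TATAAA on both strands, overlapping, at 31 and 29 bases from the start, shown in capitals.
KISS1: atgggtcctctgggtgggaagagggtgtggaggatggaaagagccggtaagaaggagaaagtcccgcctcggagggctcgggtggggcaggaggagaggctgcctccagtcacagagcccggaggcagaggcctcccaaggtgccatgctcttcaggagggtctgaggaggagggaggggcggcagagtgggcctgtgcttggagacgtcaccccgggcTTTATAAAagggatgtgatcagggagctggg
Most windows lack these letters, as given above, and a match is a description of the sequence only. Its ratio of observed to expected CG pairs was 0.367, near the median of absent genes.

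Messengers of the translation machinery are known to begin with a 5′ terminal oligopyrimidine tract, a C followed by a run of C and T, through which their translation follows nutrient signals. Taken as a C and then 4 letters that are each C or T at the RefSeq start, this tract opened 4.65% of all 15310 transcripts with a window. Among the 100 most abundant genes it opened 29 of 67, or 43.3%. The next lines show the first 20 bases of 4 transcripts with the tract and 2 without it, all from the 20 most abundant genes, with the leading run of C and T in capitals.
EEF1A1: CTTTTTCgcaacgggtttgc
RPS12: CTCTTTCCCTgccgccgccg
EEF2: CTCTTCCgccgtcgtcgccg
RPL41: CTCTCggccttagcgccatt
FTL: gcagttcggcggtcccgcgg
GAPDH: gtccggatgctgcgcctgcg
In the order shown, these stretches lie at chr6:73521013-73521032 (minus), chr6:132814569-132814588 (plus), chr19:3985444-3985463 (minus), chr12:56116633-56116652 (plus), chr19:48965309-48965328 (plus) and chr12:6535264-6535283 (plus). The elongation factor gene EEF2, at 807, 1342 and 1020.1 FPKM, has a run of 7 letters, as has EEF1A1, and RPS12 has a run of 10. Of the 67 genes with a window, 27 encode ribosomal proteins and 19 of these have the tract, or 70.4%, against 10 of the other 40, or 25.0%.

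Few markers of pancreatic duct cells were present. Of the 15 ductal genes, 3 were present, CA2, EPCAM and ANXA4, and 7 were absent. CA2, a carbonic anhydrase of bicarbonate-secreting ducts, was at 17.7, 25.7 and 18.8 FPKM. EPCAM, an epithelial adhesion protein, was at 2.31, 3.99 and 4.88 FPKM. The defining duct genes were low: KRT7 was at 0.0521, 0.208 and 0.205 FPKM, KRT19 at 0, 0.0521 and 0.0717 FPKM, and the chloride channel gene CFTR was listed at 0 in all 3 libraries. SOX9, a progenitor and duct factor, was at 0.569, 2.07 and 1.52 FPKM and passed 1 FPKM in control 2 and 3 only. Over all protein-coding genes the share present was 46.0%. The defining duct keratins were thus near 0, and the cells are called here by the name of the line.

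No acinar or endocrine gene reached 1 FPKM in all 3 libraries. Of 18 acinar genes 0 were present and 16 absent, among them the trypsinogen gene PRSS1, the carboxypeptidase gene CPA1 and the acinar master factor PTF1A, each listed at 0 in all 3 libraries. BHLHA15, an acinar secretory factor, was the highest by mean, at 0.0668, 0.153 and 1.05 FPKM, with most of it in control 3. Of 21 endocrine genes 0 were present, 15 were absent and 6 lay between. The hormone genes INS, GCG, SST and PPY were listed at 0 throughout. SYP, a synaptic vesicle protein, was at 0.297, 2.21 and 4.29 FPKM, under 1 FPKM in control 1 only.

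Among the 22 pancreatic lineage factors, 5 were present: HHEX, GATA4, FOXA1, HNF4G and MNX1. HHEX, a homeobox factor of foregut endoderm, was at 5.51, 7.84 and 6.21 FPKM and GATA4, a zinc finger factor of endoderm, at 6.01, 4.28 and 4.86 FPKM. FOXA1, a pioneer factor, was at 1.51, 3.67 and 3.28 FPKM, with control 1 lowest. PDX1, which specifies the pancreas, was at 0.618, 0.779 and 0.290 FPKM and under 1 FPKM in each library. The 10 absent factors included HNF4A and FOXA2, of which FOXA2 was at 0, 0.0702 and 0.0214 FPKM. GATA6, the factor that marks the classical subtype, was at 0.473, 0.355 and 0.566 FPKM, under GATA4 in each library.

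Most genes of the classical subtype were low. Of 33 listed genes 1 was present and 22 were absent, of which 10 were listed at 0 in all 3 libraries, with a list median of 0.0114 FPKM beside 0.977 FPKM over all protein-coding genes. The single present member was PLS1, an actin-bundling protein of microvilli, at 7.31, 17.7 and 16.1 FPKM. The trefoil factor genes TFF1 and TFF2 and the secretory genes AGR2 and CTSE were absent, as was TSPAN8. ERBB3, a receptor of the EGF receptor family, was at 0.401, 0.842 and 0.531 FPKM.

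Of 29 measured basal-like genes 3 were present, 17 were absent and 9 lay between. The present ones were the glucose transporter gene SLC2A1, at 47.4, 50.5 and 88.1 FPKM, the adaptor gene BCAR3, at 21.3, 17.1 and 22.6 FPKM, and S100A2, a calcium-binding protein, at 14.2, 9.37 and 16.8 FPKM. KRT5, KRT14 and TP63, which define squamous epithelium, were absent, and KRT17 was at 0, 0 and 0.0714 FPKM. KRT15 was at 0.0679, 6.40 and 2.91 FPKM and so differed between control 1 and the other libraries.

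The quasi-mesenchymal list had the largest share present of the 3 subtype lists, with 12 of 19 genes, or 63.2%, present and 5 absent. The share was 10.3% for the basal-like list, 3.03% for the classical list and 46.0% over all protein-coding genes. The median of the quasi-mesenchymal list was 6.23 FPKM, and no subtype is assigned from these counts. This list shares S100A2 and KRT14 with the basal-like list. CKS2, a cell cycle protein that binds cyclin-dependent kinases, was at 307, 370.3 and 159 FPKM. NT5E, the ectoenzyme CD73 that makes adenosine, was at 69.0, 184 and 174 FPKM. PHLDA1, a gene induced by growth factors, was at 13.1, 119 and 36.5 FPKM, and SLC16A1, a lactate transporter, at 29.8, 37.0 and 39.9 FPKM. TWIST1 and AIM2 were absent.

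**Figure D3:**
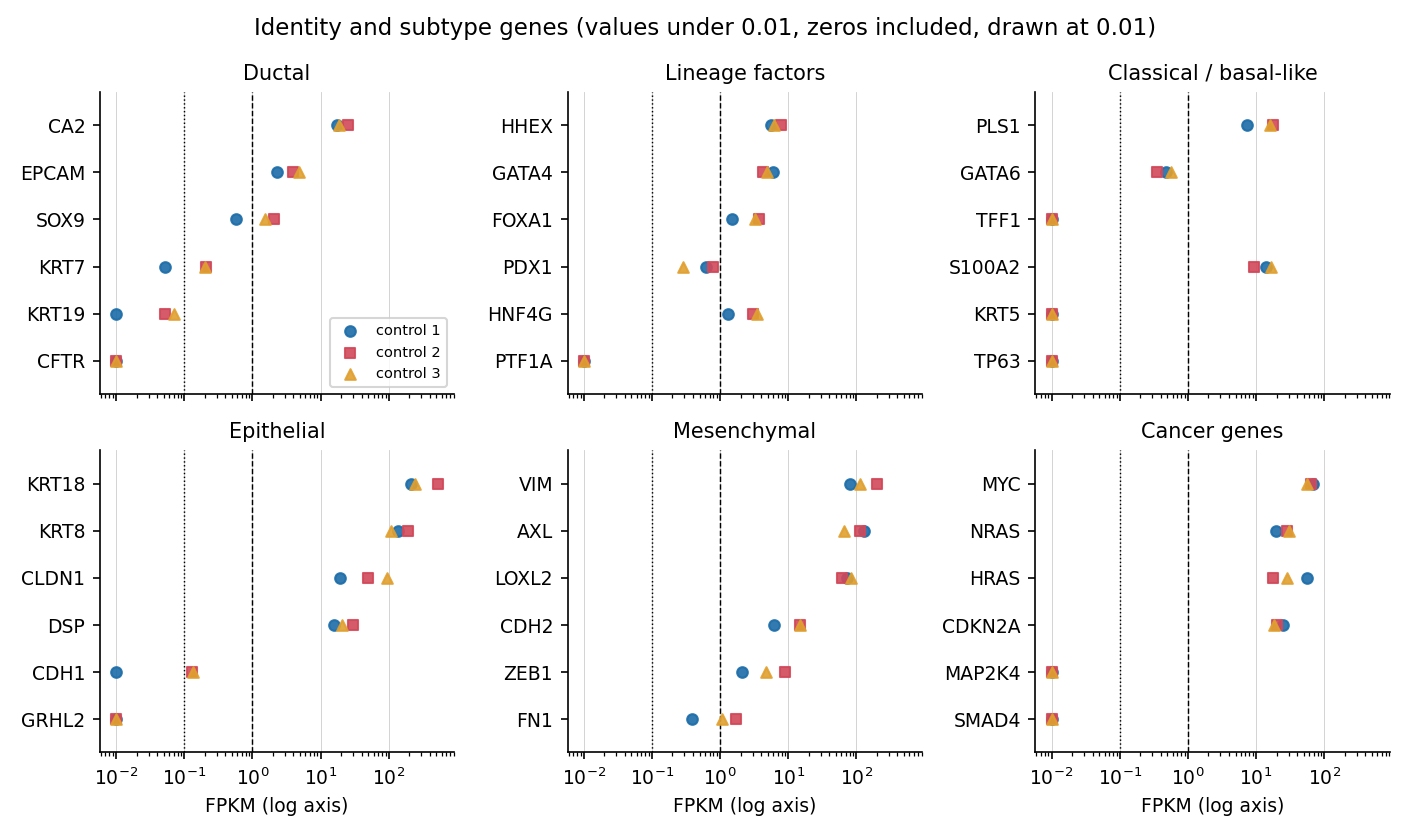
FPKM of 36 identity genes in 6 panels on log axes, with 1 marker for each of the 3 control libraries, a dashed line at 1 FPKM and a dotted line at 0.1 FPKM. Keratins 8 and 18, VIM and AXL lie at the right, while KRT19, CFTR, TFF1, KRT5, TP63, MAP2K4 and SMAD4 lie at the left edge or under 0.1 FPKM.

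Some epithelial and some mesenchymal genes were detected. The share present was lower in each list than over all protein-coding genes. The lists are short, and the difference was not tested. Of 33 epithelial genes 13, or 39.4%, were present and 10 absent. Of 29 mesenchymal genes 10, or 34.5%, were present and 10 absent, beside 46.0% present over all genes. The list medians were 0.148 and 0.733 FPKM, beside 0.977 FPKM over all genes. KRT18 and KRT8, the keratin pair of simple epithelia, led the first list at 211, 531 and 241 FPKM and 138, 192 and 108 FPKM. The tight junction gene CLDN1 was at 19.3, 49.7 and 94.6 FPKM and was highest in control 3. AP1M2, an epithelial sorting adaptor, was at 49.4, 75.3 and 73.2 FPKM. DSP, the desmosome plaque protein, was at 15.6, 29.5 and 20.9 FPKM.

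The epithelial cadherin gene CDH1 was near 0. Of the mesenchymal cadherin genes, CDH2 was present and CDH11 absent. CDH1, the E-cadherin of epithelial junctions, was at 0.00863, 0.128 and 0.136 FPKM, or 1, 13 and 15 reads. CDH2, the N-cadherin of motile cells, was at 6.09, 14.7 and 15.0 FPKM, lowest in control 1. The regulators of epithelial splicing and shape ESRP1, at 0.0109, 0.0875 and 0.137 FPKM, and GRHL2, which was absent, were low too. ZEB1, a repressor of CDH1, was at 2.12, 9.01 and 4.63 FPKM, whereas ZEB2, TWIST1 and TWIST2 were absent. SNAI2, another repressor, was at 1.54, 0.0359 and 0.280 FPKM and thus above 1 FPKM in control 1 only.

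The leading mesenchymal genes included the intermediate filament gene VIM, at 81.0, 202 and 112 FPKM. AXL, a receptor tyrosine kinase, was at 131, 111 and 65.2 FPKM and LOXL2, a lysyl oxidase that crosslinks collagen, at 71.5, 61.0 and 82.8 FPKM. FN1, the matrix protein fibronectin, was lower, at 0.382, 1.71 and 1.07 FPKM. MMP2, CDH11, PRRX1 and COL6A2 were absent. Among 19 keratins 4 were present, KRT18, KRT8, KRT10 and KRT80, and 12 were absent.

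Of 34 genes listed as pancreatic cancer genes, 27, or 79.4%, were present and 3 absent, beside 46.0% present over all protein-coding genes. The small GTPase genes NRAS and HRAS were at 19.5, 28.6 and 30.8 FPKM and 55.5, 17.5 and 28.5 FPKM, the first lowest and the second highest in control 1. MYC, a growth-promoting transcription factor, was at 68.9, 63.6 and 55.7 FPKM. CDKN2A, the locus of the inhibitors p16 and p14ARF, was at 24.6, 20.3 and 18.5 FPKM, and its neighbours MTAP and CDKN2B were at 3.63, 4.02 and 5.11 FPKM and 0.815, 3.59 and 5.16 FPKM. GNAS, a G protein subunit, led the list at 91.5, 165 and 143 FPKM. A level says nothing of the sequence, and variants were not examined here.

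SMAD4, the shared mediator of TGF-beta and BMP signals, had 0, 0 and 1 read. Its gene (ENSG00000141646) lies at 51028394 to 51085045 on the plus strand of chromosome 18 in hg38, and 7.37% of its exonic bases overlap another gene on that strand. The limit that 3 reads would set is 0.0122, 0.0139 and 0.0128 FPKM for counting error only. The nearest named genes on either side, ELAC1 and MEX3C, were detected, at 0.887, 1.10 and 0.774 FPKM and 2.51, 6.15 and 5.19 FPKM. MAP2K4, a kinase of the JNK pathway, also had 0, 0 and 1 read, with 0 exonic bases shared on its strand. It lies at 12020824 to 12143830 on the plus strand of chromosome 17, in a run of 7 consecutive protein-coding genes that were all absent, from TMEM238L to MYOCD. That run includes ZNF18, a zinc finger gene listed at 0 in all 3 libraries, and ends before ARHGAP44 and ELAC2, at 2.39, 4.32 and 2.98 FPKM and 60.0, 31.1 and 29.7 FPKM. Over all protein-coding genes 34.9% were absent, and how often such runs occur was not counted. The third absent gene, RNF43, is among the overlapped genes named above.

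Genes of the cell cycle were detected throughout: 33 of 34 proliferation genes were present and 0 were absent. The share present was 97.1%, beside 46.0% over all protein-coding genes. The list median was highest in control 1, at 41.2, 19.0 and 20.4 FPKM for control 1 to 3. PCNA, the clamp of DNA polymerase, was at 186, 54.2 and 101 FPKM and CCNB1, the mitotic cyclin, at 184, 67.7 and 78.2 FPKM. MCM7, a part of the replicative helicase, was at 105, 48.3 and 44.5 FPKM. MKI67, the marker Ki-67, was at 31.6, 10.3 and 11.6 FPKM. CDKN1A, the inhibitor p21, was lowest in control 1, with 6.64, 48.4 and 38.3 FPKM.

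The deposited tables assign 1548 protein-coding genes to a transcription factor family, of which 677, or 43.7%, were present. HMGA1, an architectural chromatin protein that is high in many carcinomas, was the most abundant of them at 735, 625 and 491 FPKM, followed by the cold shock protein gene YBX1 at 603, 602 and 501 FPKM. FOSL1, the AP-1 subunit FRA1, came next at 409.7, 319.6 and 233 FPKM, highest in control 1. ATF4, the factor of the amino acid stress response, was at 137, 254 and 190.2 FPKM. BHLHE40, a repressor induced by hypoxia and other stresses, was at 9.99, 467 and 124 FPKM, so its place among the leading factors rests on control 2 and 3.

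Of 55 receptor tyrosine kinase genes, 15, or 27.3%, were present, beside 46.0% over all protein-coding genes, and 24 were absent. EPHA2, an ephrin receptor, was the highest by mean at 85.0, 234 and 178 FPKM, and AXL, highest in control 1, followed with the values above. EGFR was at 22.5, 32.4 and 32.6 FPKM and MET, the hepatocyte growth factor receptor, at 21.4, 29.7 and 34.4 FPKM. MST1R, the receptor of macrophage-stimulating protein, was at 20.8, 20.5 and 25.0 FPKM with little spread, and PTK7 was at 16.5, 26.7 and 14.5 FPKM. ERBB2 was lower, at 10.2, 7.58 and 5.62 FPKM, and ERBB4 was absent. Absent too were KIT, PDGFRA, PDGFRB, KDR, ALK, RET and the neurotrophin receptor genes NTRK2 and NTRK3.

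Receptors and their ligands were not always detected together. The AXL ligand gene GAS6 was at 9.10, 5.48 and 4.93 FPKM, but HGF, the ligand of MET, was listed at 0 in all 3 libraries. Of EGFR ligands HBEGF was at 5.92, 30.3 and 17.1 FPKM, TGFA at 0.677, 0.834 and 1.16 FPKM and AREG at 0.324, 0.443 and 0.305 FPKM, and EGF and EREG were absent. Ligands supplied by serum or by the matrix were not measured.

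Of 26 integrin chains 9, or 34.6%, were present and 10 absent, beside 46.0% present over all protein-coding genes. Chains were detected for laminin, fibronectin and collagen receptors. ITGB1, the beta chain shared by most of them, was at 100.2, 295 and 225 FPKM, highest in control 2 and lowest in control 1. ITGA3 and ITGA6, chains of laminin receptors, were at 141, 148 and 122 FPKM and 53.5, 139 and 55.4 FPKM, so ITGA3 was the steadier of the pair. ITGAV, which pairs with several beta chains, was at 8.59, 41.6 and 37.8 FPKM, and the fibronectin receptor chain ITGA5 at 12.4, 37.3 and 18.9 FPKM. ITGA11, a chain of a collagen receptor of fibroblasts, was absent, as were ITGA4, ITGB6 and the leukocyte chains ITGAL and ITGAM.

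Receptors of the TGF-beta family were present for 10 of 15 genes, or 66.7%, beside 46.0% over all protein-coding genes. TGFBR2, the type II receptor, was at 16.1, 24.5 and 34.4 FPKM, the co-receptor gene TGFBR3 at 6.11, 11.4 and 9.66 FPKM, and the type I receptor gene TGFBR1 at 4.77, 8.83 and 11.5 FPKM, while their shared mediator SMAD4 had the 1 read given above. Of 22 Wnt receptor genes 13, or 59.1%, were present. FZD6 led at 26.4, 41.8 and 73.9 FPKM, then LRP5 at 27.0, 26.2 and 19.3 FPKM and FZD2 at 36.3, 16.0 and 13.6 FPKM. FZD6 and FZD2 had opposite orders, with control 1 lowest for the former and highest for the latter. LGR5, the stem cell marker, was listed at 0. NOTCH2 and NOTCH1 were the 2 present genes of the 9 Notch receptors and ligands, at 6.11, 9.56 and 6.78 FPKM and 5.24, 10.6 and 5.64 FPKM.

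Cytokine receptor genes were present for 18 of 43, a share near that of all genes. OSMR and IL6ST, which together form a receptor for oncostatin M, led at 15.4, 28.0 and 66.2 FPKM and 15.9, 33.2 and 55.8 FPKM, each highest in control 3. IL27RA was at 11.4, 17.6 and 14.7 FPKM, and the interferon gamma receptor genes IFNGR1 and IFNGR2 were at 7.19, 19.1 and 15.5 FPKM and 11.4, 19.0 and 9.41 FPKM. OSM itself was listed at 0, while LIF, a cytokine that signals through IL6ST with LIFR, was at 2.58, 9.56 and 11.5 FPKM and LIFR at 0.715, 2.28 and 1.25 FPKM.

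Receptors of the TNF family were present for 12 of 26, or 46.2%, beside 46.0% over all protein-coding genes. TNFRSF12A, the receptor of TWEAK, was the highest at 164, 140.3 and 106 FPKM. Death receptors for TRAIL were detected with their decoy: TNFRSF10B was at 20, 53.2 and 43.6 FPKM, TNFRSF10A at 7.52, 16.1 and 13.7 FPKM and the decoy gene TNFRSF10D at 5.94, 37.9 and 77.3 FPKM. The decoy lay under TNFRSF10B in control 1 and 2 and above it in control 3. TNFRSF1A, the main TNF receptor, was at 24.4, 30.5 and 32.2 FPKM and FAS at 1.89, 3.94 and 2.74 FPKM.

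G protein-coupled receptors were present less often than all protein-coding genes, with 17 of 77, or 22.1%, beside 46.0%. Absent were 34, or 44.2%, beside 34.9%. The adhesion receptor gene ADGRG6 led at 9.89, 29.3 and 28.8 FPKM, with GPRC5A, a retinoic acid-induced orphan receptor, at 18.2, 15.2 and 30.7 FPKM. ADGRE5, known as CD97, was nearly level at 14.3, 14.9 and 14.2 FPKM. The receptors of pancreatic secretagogues CCKAR, CCKBR and SCTR were absent, as were the incretin and glucagon receptor genes GLP1R and GCGR. CXCR4 was at 0.312, 1.15 and 2.21 FPKM.

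Genes that face immune cells were present for 20 of 38, or 52.6%, beside 46.0% over all protein-coding genes. The adenosine-producing enzyme NT5E led this list with the values above. HLA-E, B2M and HLA-C, parts of MHC class I, were at 64.5, 103 and 68.8, at 57.7, 76.5 and 69.4 and at 22.6, 34.3 and 35.2 FPKM. HLA genes are near-identical to each other in places, so their single values are uncertain. PVR, the poliovirus receptor that natural killer cells read, was at 29.3, 49.5 and 45.0 FPKM. CD274, the checkpoint ligand PD-L1, was at 0.376, 4.03 and 1.09 FPKM, under 1 FPKM in control 1 and above it in the others, and PDCD1LG2, CD80 and CD86 were absent. The MHC class II gene HLA-DRA and its activator CIITA were absent.

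Among 65 adhesion proteins, surface antigens and transporters, 31, or 47.7%, were present, beside 46.0% over all protein-coding genes. BSG, the transporter chaperone CD147, led at 249.7, 196 and 166 FPKM and TFRC, the transferrin receptor, followed at 68.3, 218 and 209 FPKM. SLC7A5, the large neutral amino acid transporter, was at 109, 168 and 169.9 FPKM and the tetraspanin gene CD63 at 100, 123 and 114 FPKM. MSLN, the tumour antigen mesothelin, was at 9.02, 14.7 and 10.4 FPKM. Other antigens used as targets or markers in pancreatic cancer were low, with MUC1 at 0.780, 0.801 and 0.840 FPKM, CEACAM5 at 0, 0 and 0.117 FPKM, and MUC16 and MUC4 absent.

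**Figure D4:**
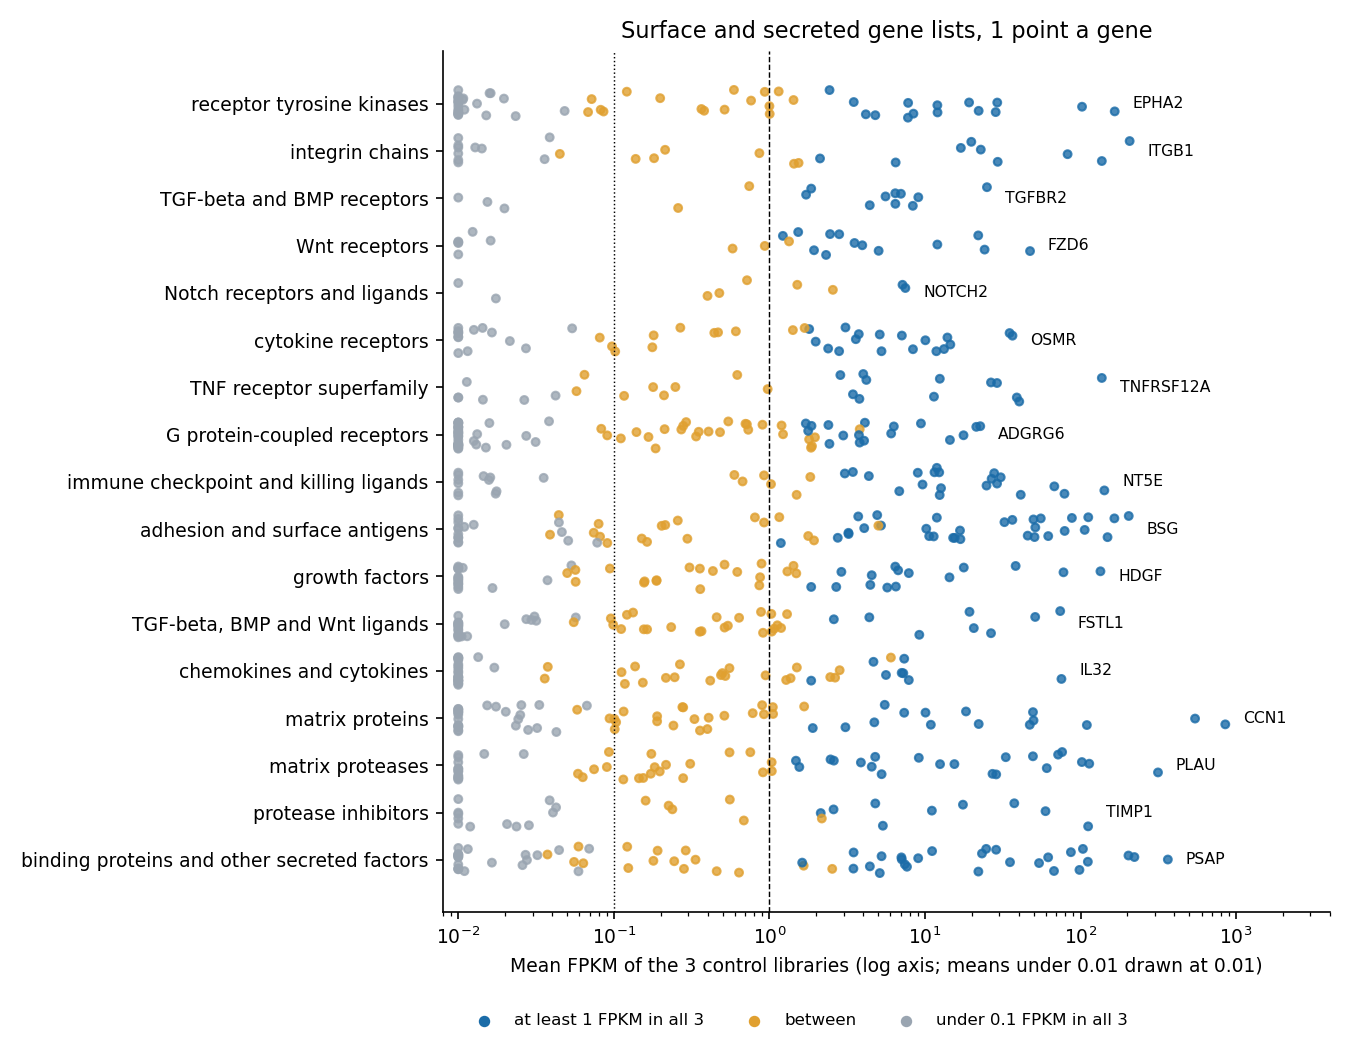
Mean FPKM over the 3 control libraries for each gene of 17 lists of surface and secreted proteins, on a log axis, with points coloured by class, a dashed line at 1 FPKM and a dotted line at 0.1 FPKM. The highest gene drawn for each list is named, 1 protease inhibitor gene is not drawn, and CCN1 lies furthest to the right, with a mean of 852 FPKM.

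Genes of secreted proteins were present less often than all protein-coding genes by count: 101 of 364, or 27.7%, beside 46.0% over all and 146 of 372, or 39.2%, for the surface lists. Of 52 growth factor genes 15 were present. HDGF, a nuclear and secreted mitogen, was at 187, 128 and 87.9 FPKM and GRN, the progranulin gene, at 64.1, 84.7 and 84.3 FPKM. VEGFB was at 48.3, 35.0 and 31.5 FPKM, above VEGFA at 1.45, 5.02 and 10.7 FPKM in each library. HBEGF, given above, was the fourth. IGF1, FGF7 and FGF10 were absent.

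Ligands of the TGF-beta, BMP and Wnt families with their regulators were present for 8 of 52, or 15.4%, beside 46.0% over all protein-coding genes. FSTL1, a secreted follistatin-like protein, led at 42.7, 95.2 and 84.2 FPKM. TGFB1 was at 50.0, 69.1 and 34.2 FPKM, and LTBP4, which stores the latent form in the matrix, at 16.4, 27.8 and 17.6 FPKM. WNT5B, a ligand of non-canonical Wnt signalling, was at 37.5, 24.5 and 17.7 FPKM, while WNT5A was at 0.425, 0.189 and 0.483 FPKM. INHBA, SHH and GREM1 were absent.

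Of 53 chemokine and cytokine genes 8, or 15.1%, were present, beside 46.0% over all protein-coding genes. A further 23 were absent, with 18 listed at 0 throughout. IL32, a cytokine made by epithelial and immune cells, was the highest at 59.9, 98.4 and 67.8 FPKM. LIF had the values given above, IL18 was at 1.79, 10.4 and 9.90 FPKM and LTB at 4.03, 11.3 and 6.44 FPKM. CXCL8, a neutrophil chemokine, was listed at 0 in control 1 and was at 0.911 and 7.02 FPKM in control 2 and 3. IL6 was at 0, 0.0294 and 0.324 FPKM, and CXCL12, CCL2, CXCL9 and CXCL10 were absent.

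Matrix genes differed widely in level, also within a kind. CCN1 and CCN2, secreted matricellular proteins that respond to YAP, were at 434, 1325 and 798 FPKM and 174, 1093 and 367 FPKM, both highest in control 2 and lowest in control 1. Laminin chains came next: LAMB3 was at 56.3, 173 and 100.2 FPKM and LAMC1 at 27.9, 76.6 and 45.1 FPKM, in the same order of libraries. In all 15 of 63 matrix genes, or 23.8%, were present and 26 absent, beside 46.0% present over all protein-coding genes. The absent ones included the fibrillar collagen genes COL1A1 and COL1A2, the basement membrane collagen genes COL4A1 and COL4A2, and DCN, LUM and POSTN. The laminin chain gene LAMA4 was absent too, whereas the collagen genes COL12A1 and COL18A1 were present. COL6A1 was at 9.78, 13.7 and 6.79 FPKM although COL6A2, whose product joins it in collagen VI, was at 0.0297, 0.0339 and 0.0207 FPKM with 0 exonic bases shared.

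Proteases were present for 21 of 55 genes, or 38.2%, beside 46.0% over all protein-coding genes. The urokinase gene was highest by mean and the sheddase gene ADAM9 next. PLAU, the urokinase gene, was at 125, 393 and 426 FPKM and its receptor gene PLAUR at 7.06, 22.3 and 16.2 FPKM, each lowest in control 1. PLAT, the tissue plasminogen activator, was at 23.6, 168 and 115 FPKM, and the membrane sheddase gene ADAM9 at 57.6, 140.0 and 144 FPKM. The lysosomal protease gene CTSZ was at 96.4, 61.0 and 71.0 FPKM, highest in control 1. Matrix metalloproteinases were low, with MMP14 at 0.119, 0.355 and 0.0750 FPKM, MMP1 at 0, 0.185 and 0.0850 FPKM, MMP9 at 0.0457, 0.130 and 0.0478 FPKM, and MMP2 and MMP7 absent. CPXM2 and CPXM1, carboxypeptidase-like genes, were listed at 0 in all 3 control libraries.

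Of 28 protease inhibitor genes 10, or 35.7%, were present, beside 46.0% over all protein-coding genes. TIMP1, an inhibitor of metalloproteinases, was at 127, 123 and 85.3 FPKM and TIMP2 at 26.5, 44.1 and 41.9 FPKM. SPINT2, an inhibitor of membrane serine proteases, was at 35.5, 72.8 and 70.3 FPKM, while SPINT1 was absent.

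The last secreted list held 27 present genes of 64, or 42.2%, beside 46.0% over all protein-coding genes. PSAP, the precursor of the saposins, was at 267, 469 and 356 FPKM, TXN, the thioredoxin gene, at 290.3, 189.5 and 186 FPKM and LGALS1, the galectin-1 gene, at 122, 308 and 179.5 FPKM. IGFBP3, which binds insulin-like growth factors, was at 30.6, 1.12 and 1.65 FPKM, with nearly all of it in control 1. The liver and plasma protein genes ALB, TTR, AFP and AGT were absent.

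Markers of other cell types were at or near 0 in most cases. Of 14 fibroblast, 16 immune, 11 endothelial and 7 fat cell markers 0 were present. The summed level was 0.911, 1.24 and 1.80 FPKM for the fibroblast list, with ACTA2 the highest at 0.806, 0.819 and 0.826 FPKM and DCN, LUM, FAP and PDPN listed at 0. It was 2.18, 3.44 and 2.63 FPKM for the endothelial list, led by ESAM at 1.64, 1.36 and 0.918 FPKM. For the immune list it was 0.438, 0.386 and 0.473 FPKM, with PTPRC at 0, 0 and 0.0183 FPKM. Haemoglobin reads were found in control 3 alone: HBB had 87 reads there, or 3.73 FPKM, and HBA2 had 27, or 1.82 FPKM, and both had 0 in control 1 and 2. HBA1 and HBA2 are near-identical, so the split between them is uncertain. The red cell gene ALAS2 was absent, and 0 of the 5 markers of that list were present. Of 8 liver cell markers 0 were present and 6 absent. Of 8 nerve and Schwann cell markers 1 was present, the myelin gene MBP at 1.04, 2.11 and 2.10 FPKM.

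The 3 control libraries were not equally close. Among the 9940 protein-coding genes whose mean reached 1 FPKM, 268, or 2.70%, differed at least 2-fold between control 2 and control 3 on the log2(FPKM + 1) scale. Between control 1 and control 2 it was 1984 genes, or 20%, with 802 higher in control 1 and 1182 higher in control 2. Between control 1 and control 3 it was 1507 genes, or 15.2%. Each is a comparison of 1 library with 1 library, so it has no p-value. Pearson correlations across these genes on the log2 scale were 0.872, 0.896 and 0.964 for the pairs 1 and 2, 1 and 3, and 2 and 3, as descriptions over genes that share their libraries.

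**Figure D5:**
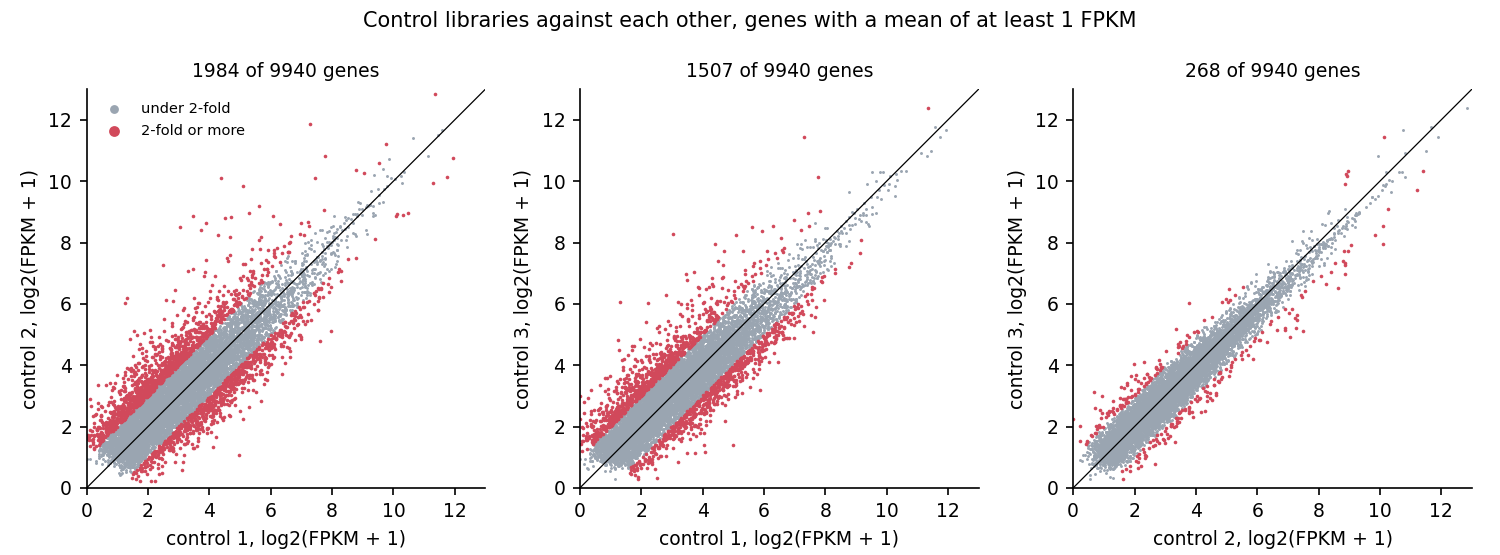
Each control library against another on the log2(FPKM + 1) scale for 9940 protein-coding genes, with genes at least 2-fold apart in red and the line of equal values. The red genes number 1984, 1507 and 268, and both panels with control 1 are the wider.

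The median coefficient of variation over the 3 libraries was 28.4%, where the reads behind a gene, a median of 745.5 per library, would give 3.66% from counting error alone, a limit that separate samples ordinarily exceed. Without control 1 the median was 14.8%. Above a mean level of 100 FPKM over the 3 libraries it was 24.1%, beside 0.945% from counting.

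The widest ranges were sought above a mean level of 10 FPKM, and the widest were more often lowest in control 1. Of 4258 such genes, with 1 that shares its symbol left out, 194 lay at least 4-fold apart between their highest and lowest library, and control 1 was the lowest for 138 of these, control 2 for 43 and control 3 for 13. Control 1 was the highest library for 56 of the 194, and over all 4258 genes it was the lowest for 1800 and the highest for 1857. SAT1, an enzyme that acetylates polyamines, was at 20, 1102 and 248 FPKM and had the widest range. DDIT4, a stress-induced inhibitor of mTORC1, was at 1.48, 72.8 and 65.0 FPKM, and ALDOC, a glycolytic aldolase, at 7.23, 359 and 311 FPKM. HMOX1, haem oxygenase, was at 33.4, 919.7 and 305 FPKM. Each of these was lowest in control 1 and highest in control 2.

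HMGCS1, INSIG1 and ACSS2 were also among the 10 genes of widest range. HMGCS1, which makes the precursor of mevalonate, was at 13.7, 394 and 89.8 FPKM. INSIG1, which holds the sterol sensor in the endoplasmic reticulum, was at 12.2, 337 and 129 FPKM and ACSS2, which makes acetyl-CoA from acetate, at 4.65, 153 and 36.4 FPKM. All 3 are known targets of SREBP factors and had the same order of libraries. The letters TCACNCCAC, a form of the sterol response element searched on both strands, were in 1 of the 25 windows found for the 30 genes of widest range, that of ALDOC, and in 0.908% of all windows. The search covered 1 form of the element and 1 window of 250 bases per gene, so it cannot show that such sites are lacking. IGFBP3 was the exception in direction among the 10 widest, being highest in control 1.

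EGR1, an immediate early factor induced by serum and by stretch, was at 1.38, 64.9 and 27.3 FPKM, with BHLHE40, given above, next to it in range. The window before its start (chr5:138465229-138465478, plus strand) held 2 CArG boxes, the site of serum response factor, in capitals below. Such a box, searched on both strands, was in 1.17% of all windows. Of the 25 windows found for the 30 genes of widest range, 1 had it, that of EGR1.
EGR1: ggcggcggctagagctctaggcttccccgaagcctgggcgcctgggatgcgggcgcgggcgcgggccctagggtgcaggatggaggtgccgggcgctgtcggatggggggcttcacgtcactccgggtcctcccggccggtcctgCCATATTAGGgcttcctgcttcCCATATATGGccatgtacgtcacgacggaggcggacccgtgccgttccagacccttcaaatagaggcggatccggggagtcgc
The boxes begin 105 and 83 bases before the start. Whether serum response factor was bound there was not measured.

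At the other end, 400 of the 4258 genes, or 9.39%, lay within 1.2-fold in all 3 libraries. PFKP, the platelet form of phosphofructokinase, had the narrowest range at 131, 132 and 133 FPKM. STK40, a kinase-like protein, was at 26.7, 26.6 and 26.4 FPKM and NFKB1, a subunit of NF-kB, at 17.2, 17.5 and 17.2 FPKM. MAPRE1, a microtubule end-binding protein, was at 79.8, 81.7 and 80.7 FPKM. Of the others among the 10 narrowest, SUPV3L1, UTP11, SCCPDH, CARHSP1 and BRD2 had coefficients of variation between 0.951% and 1.91%. Counting error alone would give a median of 2.48% for genes with a mean of 10 to 100 FPKM. The 10 were picked as the extreme of 4258 genes, so their closeness is no measure of stability.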

How the data were processed

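RNA from PaTu 8988t cells was taken up in TRIzol and made into libraries with the Illumina TruSeq stranded mRNA kit, per the labels' protocols. The submitters' processing notes name bcl2fastq and hg38, while for the aligner, the counting program and its strand setting the sources used here give no name. The deposited values are FPKM, computed per gene by the authors in 2 tables with the same 58735 genes, joined here by gene identifier. All 58735 listed exonic lengths and positions equal those of GENCODE 29. Symbols came from a reference table for 19831 of 19951 protein-coding genes, and 21 genes that share a symbol are not named. Multiplied by gene length, 100% of the FPKM above 0 came out as whole reads, within 0.01 reads. The factor between the deposited scaling and the recovered totals was 1.09, 0.902 and 1.03 for control 1 to 3. Compared with scaling by the recovered totals, the deposited values are thus lower in control 1 and 3 and higher in control 2. For a gene without reads the limit is that of 3 reads, and it covers counting error alone.

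Present means at least 1 FPKM and absent under 0.1 FPKM in all 3 libraries. Only descriptions were computed, with Python 3.11.15, pandas 2.3.3 and NumPy 2.4.6, and no test was run because a single group is described. The procedure was tested on simulated data. No 2 libraries agreed within sampling noise. The 36 gene lists were written from textbook knowledge, and 1018 of 1019 listed genes were measured. Named were the 20 most abundant genes, up to 4 leading members of each list, fixed marker genes and the 10 genes each of widest and narrowest range, with others of known function added after their values were seen. Some genes that this rule selects are not reported here. The members and lists were chosen with earlier results of these data known. The alternatives were other thresholds, TPM or median-of-ratios scaling, pseudocounts, filters, mitochondrial genes left out, shares of reads and each library left out. The overlap of exons, its alternative and the start windows were chosen after seeing the data.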

Additional observations from a re-analysis of the deposited data

How the results depend on the processing

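Counts of present and absent genes stayed within 1.5 times their main value under the alternatives run, except at a threshold of 5 FPKM, where 5311 genes were present in place of 9175. Leaving out 1 library gave 9282 to 9598 present and 7142 to 7282 absent genes. At 1 TPM 10783 genes were present, under 3 reads in each library 5973 were absent, and without the genes that share 50% or more of their exonic bases, an alternative chosen after seeing the data, 6256 were absent. Of the listed genes 341 were present, and 347 to 378 with a library left out. The share of the top 10 and top 100 genes, 10.8% and 30.6%, was 8.59% and 26.1% without mitochondrial genome genes and 7.70% and 21.5% as a share of recovered reads, because FPKM divides by length. With a library left out it was 10.5% to 11.2% and 30.1% to 31.6%. The count of genes 2-fold apart between control 2 and 3, 268, was 177 with a mean of at least 5 FPKM and 544 with a pseudocount of 0.1, and 276 with the filter taken without control 1. The counts for the pairs 1 and 2 and 1 and 3, filtered without the library outside the pair, were 1986 and 1510. The median coefficient of variation of 28.4% was 37.4% with no filter and 14.8% to 30.3% with a library left out. Median-of-ratios scaling shifted the libraries by a median of at most 0.06 on the log2 scale. No paired analysis was possible because a single group is described and no groups are compared. Depth limits mainly the genes under 0.1 FPKM, where most values rest on few reads.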
